A study of Mus musculus with 11 samples.

Results

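The LIF-STAT3 and BMP-Id genes were followed as a set of 9 genes of mouse embryonic stem (ES) cells: Lifr, Il6st, Stat3 and Socs3 of the LIF arm, and Bmp4, Smad1, Id1, Id2 and Id3 of the BMP arm. They are picked out by symbol alone, though the set was drawn up with earlier results of these data known, and make up 9 of its 24016 genes and 9 of the 14229 genes that reached 1 RPKM (reads scaled for transcript length in kilobases and for library size) in at least 1 library. The 11 libraries of polyA RNA covered 9 lines, all of J1 ES cells of strain 129S4/SvJae. They were the wild type (WT), a triple knockout of Dnmt1, Dnmt3a and Dnmt3b (TKO), a double knockout of Dnmt3a and Dnmt3b that keeps Dnmt1 (DKO), and both knockouts with Dnmt3a1, Dnmt3a2 or Dnmt3b1 put back. Of the 9 lines, 7 are seen in a single library, while 2 libraries exist for TKO+Dnmt3a1 and 2 for TKO+Dnmt3a2. All lines, the controls included, grew on irradiated mouse embryonic fibroblasts in medium with fetal bovine serum and mouse LIF, so that the cytokine and the serum proteins were present throughout. How many clones each line stands for, which promoter drove the enzymes put back, and whether paired libraries of 1 line are separate cultures, are not given in the sources used here. Where each line had its own mean, the p-values therefore measure only the spread between paired libraries, which may be technical (2 residual degrees of freedom). Where effects of family and enzyme were taken to add up, there were 5. That spread also holds the departures of single lines from such a sum.

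LIF binds Lifr, which pairs with Il6st (gp130), and the receptor-bound JAK kinases phosphorylate Stat3. Stat3 then enters the nucleus and switches on targets that hold ES cells in self-renewal, and among them is Socs3, an inhibitor that binds gp130 and shuts the signal off again. Bmp4 and related ligands in serum bind type I and type II receptors that phosphorylate Smad1 and its relatives, and these with Smad4 activate the Id genes. Id proteins lack a DNA-binding region, bind E proteins and so block basic helix-loop-helix factors that drive differentiation, which is why serum or BMP together with LIF keeps mouse ES cells undifferentiated. Dnmt1 copies CpG methylation at replication, and Dnmt3a and Dnmt3b set it anew. Dnmt3a1 is the longer isoform of Dnmt3a and Dnmt3a2 the shorter one, and Dnmt3b1 is the full-length catalytic form of Dnmt3b.

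Depth, worked out from the step that 1 read makes in the values of short RNAs, ran from 21.7 to 32.78 M reads per library. At these depths the lowest value of any of the 9 genes, Id2 in WT, stood on about 199 reads, a counting error of 7.09%. Dnmt1 RNA stood at 55.9 to 74.5 RPKM in WT and the DKO family (5 libraries), against 6.73 to 12.4 RPKM wherever the triple knockout was the parent (6 libraries). Dnmt3a was at 4.24 RPKM in TKO and 3.63 RPKM in DKO against 22.7 RPKM in WT. Dnmt3b was at 45.3 RPKM in TKO, above the 25.0 RPKM of WT, and at 5.68 RPKM in DKO; values per gene do not show which exons were read, so they do not check a deletion within the gene. All 11 ES cell markers looked at, Pou5f1 and Nanog among them, were at 1 RPKM or more in every library. Both Dnmt3b1 libraries stood apart. The 30 fibroblast markers had a mean log2(RPKM + 0.5) of 5.98 in TKO+Dnmt3b1 and 5.60 in DKO+Dnmt3b1, of 2.07 in DKO+Dnmt3a2 and of 3.26 to 4.33 in the other 8 libraries. Their summed level was 2431 to 3255 RPKM in the Dnmt3b1 libraries, 286.2 RPKM in DKO+Dnmt3a2 and 557.1 to 1123 RPKM elsewhere. The 18 macrophage markers summed to 299.6 to 329.0 RPKM, 13.1 RPKM and 42.9 to 118.1 RPKM in the same 3 sets, and 7 of them were listed at 0 in DKO+Dnmt3a2. In bulk RNA such as this, fewer cells of a type and less RNA per cell cannot be told apart.

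Lifr, the ligand-binding receptor chain, was highest in DKO at 11.2 RPKM and in WT at 10.6 RPKM, and no other library exceeded 7.66 RPKM, the value of DKO+Dnmt3a2. TKO held 7.31 RPKM, TKO+Dnmt3a1 6.81 ± 0.151 RPKM (SD, n = 2, values of 6.92 and 6.70) and TKO+Dnmt3a2 7.04 ± 0.283 RPKM (SD, n = 2, values of 6.84 and 7.24). DKO+Dnmt3a1 was at 6.60 RPKM, TKO+Dnmt3b1 at 5.633 RPKM and DKO+Dnmt3b1 at 5.640 RPKM. The Dnmt3b1 pair was thus lowest, and all 3 enzymes put into DKO gave a level below that of DKO, 0.59, 0.68 and 0.50 times for Dnmt3a1, Dnmt3a2 and Dnmt3b1. In TKO the same ratios were 0.93, 0.96 and 0.77. Over both families the log2 change with any enzyme was -0.43 ± 0.15 (SE), which did not pass limma's test (adjusted p = 0.107). With 1 library left out at a time it ran from -0.72 to -0.17. The value of -0.72 came without the TKO library, and so from the DKO family alone.

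Il6st, the signalling chain shared by the IL-6 family of cytokines, stayed within a 1.49-fold range. WT was at 17.7 RPKM, TKO at 14.4 RPKM and DKO at 19.5 RPKM. The TKO add-backs held 16.8 and 14.7 RPKM with Dnmt3a1, 18.3 and 14.7 RPKM with Dnmt3a2 and 21.5 RPKM with Dnmt3b1, and the DKO add-backs 18.2, 17.3 and 19.6 RPKM in the same order of enzymes. The 2 Dnmt3b1 libraries were highest, but DKO lay only just under DKO+Dnmt3b1. Stat3, the transcription factor of the arm, was the steadiest of the 9 genes. It was at 29.4 RPKM in WT, 28.5 RPKM in TKO and 26.2 RPKM in DKO, and over the 11 libraries it ran from 25.2 RPKM in TKO+Dnmt3a1 replicate 1 to 31.5 RPKM in DKO+Dnmt3b1, a 1.25-fold range. None of the 8 steps between neighbouring lines exceeded the replicate SD for Il6st or for Stat3 when the 9 lines were ordered by level.

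Socs3, the feedback inhibitor, had the highest level per length of the 9 genes in every library but the 2 with Dnmt3b1, where Id3 exceeded it, joined in TKO+Dnmt3b1 by Id1, Stat3 and Id2. It was at 64.7 RPKM in WT, 67.6 RPKM in TKO and 43.3 RPKM in DKO. TKO+Dnmt3a1 held 53.0 and 83.9 RPKM (68.4 ± 21.9, SD, n = 2), and TKO+Dnmt3a2 held 45.9 and 69.1 RPKM (57.5 ± 16.4, SD, n = 2). DKO+Dnmt3a1 was at 55.8 RPKM and DKO+Dnmt3a2 at 59.9 RPKM, against 27.6 RPKM in TKO+Dnmt3b1 and 32.2 RPKM in DKO+Dnmt3b1. The Dnmt3b1 pair lay below all other libraries, while the replicates of the Dnmt3a lines were far apart, so that no step between neighbouring lines in the order of levels exceeded the replicate SD. Socs3 lies on chromosome 11, whose genes had a median deviation on the log2 scale of -0.02 to 0.34 in the TKO family and of -0.26 to -0.15 in the DKO family. The 250 bases before its start in RefSeq, on the minus strand of GRCm38.p6 at chr11:117969367-117969616, are shown because Socs3 was one of 4 genes called below. They hold 26 CpG dinucleotides, the substrate of the enzymes, in capitals.

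Socs3: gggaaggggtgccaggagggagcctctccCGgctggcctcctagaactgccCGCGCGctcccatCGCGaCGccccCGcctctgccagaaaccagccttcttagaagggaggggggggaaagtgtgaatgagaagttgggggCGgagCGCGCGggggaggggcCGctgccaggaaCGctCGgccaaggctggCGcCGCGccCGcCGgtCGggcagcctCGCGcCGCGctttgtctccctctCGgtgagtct

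This stretch contains 1 match to the STAT motif TTCNNNGAA, from base -154 to base -146 (the start is base 0), and 1 match to the GC-rich SMAD element GGCGCC, from base -61 to base -56, searched on both strands. Of all 32851 promoter windows of 300 bases in the RefSeq table, 8.3% hold a STAT match and 11.9% a GGCGCC. No methylation was measured in these libraries.

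**Figure D1:**
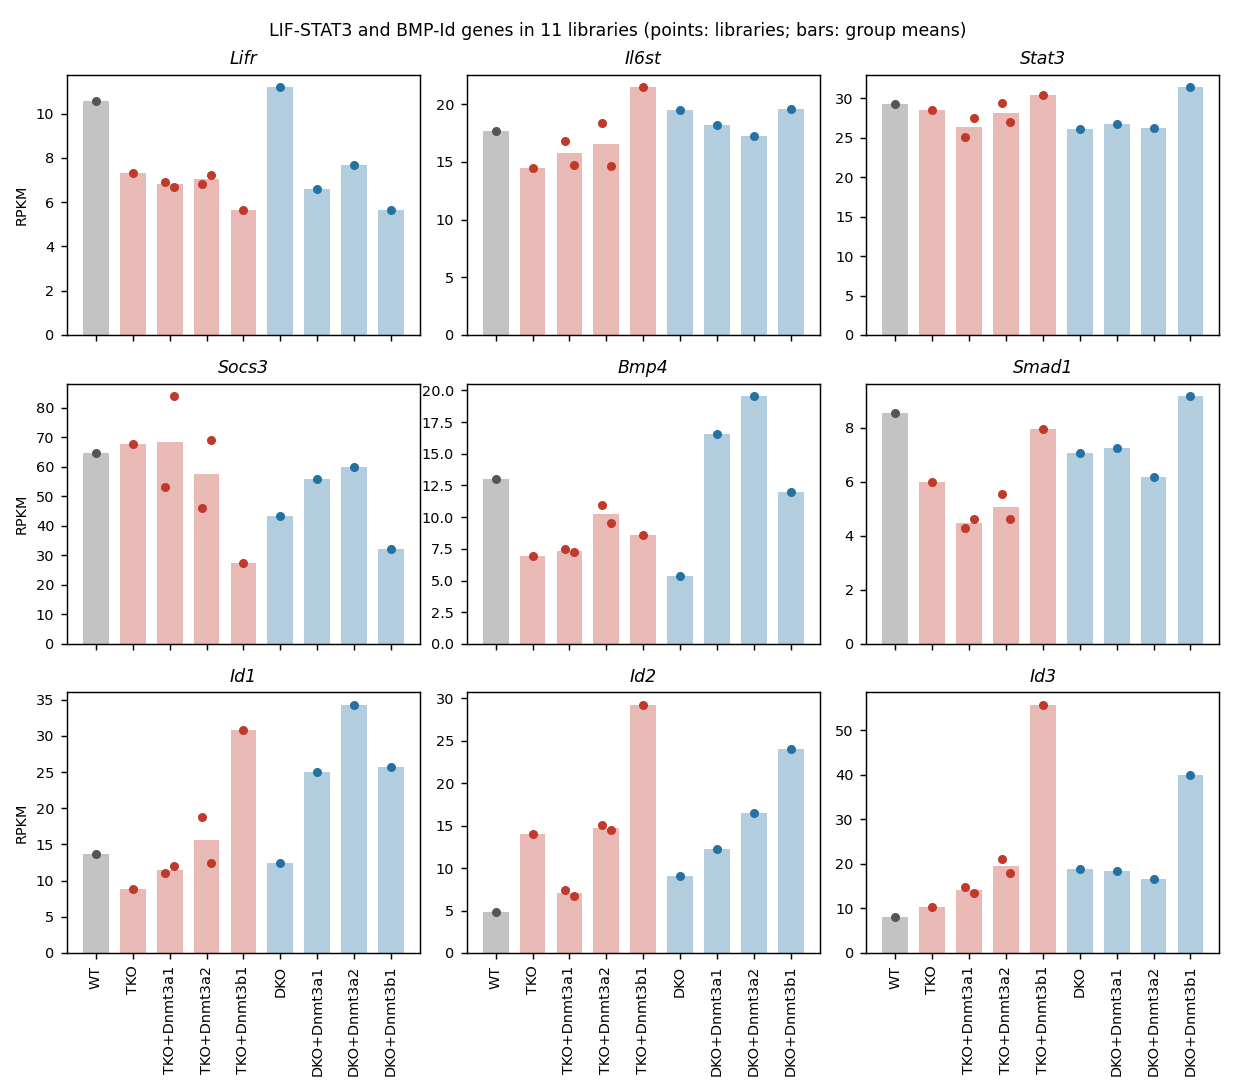
RPKM of the 9 genes (vertical axis, linear from 0), 1 panel per gene, with 1 point per library and a bar for the mean of each of the 9 lines (grey WT, red TKO family, blue DKO family). Id2 and Id3 are highest in the 2 Dnmt3b1 libraries and Socs3 lowest in them, while Stat3 stays between 25.2 and 31.5 RPKM.

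Bmp4, the ligand of the BMP arm, was at 13.01 RPKM in WT and lower in both knockouts, 6.92 RPKM in TKO and 5.36 RPKM in DKO. TKO+Dnmt3a1 held 7.48 and 7.22 RPKM (7.35 ± 0.183, SD, n = 2), TKO+Dnmt3a2 10.9 and 9.53 RPKM (10.2 ± 0.994, SD, n = 2) and TKO+Dnmt3b1 8.58 RPKM. DKO+Dnmt3a1 was at 16.5 RPKM, DKO+Dnmt3a2 at 19.6 RPKM and DKO+Dnmt3b1 at 11.96 RPKM. The enzymes put into DKO thus gave 3.08, 3.65 and 2.23 times the level of DKO, against 1.06, 1.48 and 1.24 times that of TKO in the TKO family. The highest level was in DKO+Dnmt3a2, the library with the lowest fibroblast and macrophage marker levels. Of the 8 steps between neighbouring lines, 7 exceeded the replicate SD of 0.10 (log2). That SD comes from the 2 replicated lines alone and does not measure the spread of the lines seen in 1 library.

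Smad1, which carries the BMP signal into the nucleus, was at 8.56 RPKM in WT, 5.98 RPKM in TKO and 7.06 RPKM in DKO. TKO+Dnmt3a1 held 4.30 and 4.62 RPKM (4.46 ± 0.225, SD, n = 2), TKO+Dnmt3a2 5.53 and 4.61 RPKM (5.07 ± 0.657, SD, n = 2) and TKO+Dnmt3b1 7.96 RPKM. DKO+Dnmt3a1 was at 7.25 RPKM, DKO+Dnmt3a2 at 6.18 RPKM and DKO+Dnmt3b1 at 9.18 RPKM. The highest level was thus in DKO+Dnmt3b1, WT came next and TKO+Dnmt3b1 after it, so the Dnmt3b1 pair and the other 9 libraries overlapped through WT. Smad1 lies on chromosome 8, whose median deviation (log2) was 0.17 in WT and 0.25 in TKO, between -0.22 and -0.02 in the TKO add-backs and between -0.01 and 0.06 in the DKO family. The 250 bases before its start (GRCm38.p6, chr8:79399429-79399678, minus strand) hold 25 CpG dinucleotides and no match to either motif or to the SMAD box CAGAC.

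Smad1: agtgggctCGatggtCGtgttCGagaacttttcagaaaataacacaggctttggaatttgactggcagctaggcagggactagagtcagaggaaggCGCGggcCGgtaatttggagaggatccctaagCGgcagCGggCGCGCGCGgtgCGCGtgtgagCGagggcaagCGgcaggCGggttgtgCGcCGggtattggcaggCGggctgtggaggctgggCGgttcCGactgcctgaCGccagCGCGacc

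Id1, the first of the 3 BMP target genes, was at 13.6 RPKM in WT, 8.82 RPKM in TKO and 12.4 RPKM in DKO. TKO+Dnmt3a1 held 11.003 and 12.02 RPKM (11.5 ± 0.716, SD, n = 2), TKO+Dnmt3a2 18.8 and 12.5 RPKM (15.6 ± 4.48, SD, n = 2) and TKO+Dnmt3b1 30.8 RPKM. DKO+Dnmt3a1 was at 25.1 RPKM, DKO+Dnmt3a2 at 34.3 RPKM and DKO+Dnmt3b1 at 25.7 RPKM. All 8 add-back libraries were above TKO, but TKO+Dnmt3a1 and one TKO+Dnmt3a2 library lay under WT. As with Bmp4, the highest level was in DKO+Dnmt3a2, with the lowest fibroblast markers. TKO+Dnmt3b1 and DKO+Dnmt3b1, with the highest fibroblast markers, came next, so Id1 did not follow the marker level in 1 direction.

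Id2 was lowest in WT at 4.84 RPKM, with 14.0 RPKM in TKO and 9.09 RPKM in DKO. TKO+Dnmt3a1 held 7.42 and 6.76 RPKM (7.09 ± 0.462, SD, n = 2), TKO+Dnmt3a2 15.1 and 14.5 RPKM (14.8 ± 0.431, SD, n = 2) and TKO+Dnmt3b1 29.2 RPKM. In the DKO add-backs Id2 reached 12.3 RPKM with Dnmt3a1, 16.5 RPKM with Dnmt3a2 and 24.1 RPKM with Dnmt3b1. Its replicates agreed within an SD of 0.07 (log2), and all 8 steps between neighbouring lines exceeded that SD. The SD rests on 2 lines of 2 libraries each, so the 9 lines are not shown to be resolved. The smallest step was 0.08, between TKO+Dnmt3a2 and TKO. Counting errors were 4.66% in TKO and 4.79% and 4.5% in the TKO+Dnmt3a2 libraries. TKO+Dnmt3a1 was the only add-back line in which Id2 was below the parent line, at 0.51 times TKO.

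Id3 was lowest in WT as well, at 8.07 RPKM, with 10.3 RPKM in TKO and 18.8 RPKM in DKO. TKO+Dnmt3a1 held 14.7 and 13.5 RPKM (14.1 ± 0.878, SD, n = 2), TKO+Dnmt3a2 21.2 and 17.9 RPKM (19.5 ± 2.33, SD, n = 2) and TKO+Dnmt3b1 55.7 RPKM. The DKO add-backs held 18.3 RPKM with Dnmt3a1, 16.7 RPKM with Dnmt3a2 and 40.0 RPKM with Dnmt3b1. The Dnmt3b1 pair was well above the rest, at 5.39 times TKO and 2.13 times DKO, whereas both Dnmt3a isoforms left DKO nearly where it was, at 0.98 and 0.89 times. With a range of 6.91-fold, Id3 varied most of the 9 genes, ahead of Id2 with 6.04-fold. Upstream stretches of Id2 (GRCm38.p6, chr12:25096093-25096342, minus strand) and Id3 (chr4:136143572-136143821, plus strand), which moved together in the comparison of enzymes below, hold 18 CpG dinucleotides each, again in capitals.

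Id2: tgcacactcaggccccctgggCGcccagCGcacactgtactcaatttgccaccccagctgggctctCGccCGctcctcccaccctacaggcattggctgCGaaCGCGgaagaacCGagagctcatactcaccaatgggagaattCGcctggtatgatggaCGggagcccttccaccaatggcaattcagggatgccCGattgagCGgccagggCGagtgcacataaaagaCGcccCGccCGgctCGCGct
Id3: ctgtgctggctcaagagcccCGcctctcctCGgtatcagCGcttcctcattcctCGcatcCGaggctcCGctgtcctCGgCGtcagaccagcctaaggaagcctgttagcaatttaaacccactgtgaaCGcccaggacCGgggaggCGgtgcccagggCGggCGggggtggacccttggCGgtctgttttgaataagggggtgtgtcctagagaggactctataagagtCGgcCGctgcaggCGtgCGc

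Id2 has 1 GGCGCC, from base -231 to base -226, and Id3 has the SMAD box CAGAC at base -167 to -163 and its reverse complement GTCTG at base -68 to -64. A SMAD box on either strand occurs in 49.6% of all windows. Windows of 300 bases were found for 8 of the 9 genes, 9 windows in all. Their CpG counts were 53 and 4 for the 2 windows of Lifr, 33 for Il6st, 15 for Stat3, 31 for Socs3, 12 for Bmp4, 31 for Smad1, 21 for Id2 and 19 for Id3, against a median of 7 over all windows. Among the 9 windows, the STAT motif was found in that of Socs3 alone. SMAD motifs were not confined to the BMP arm. Lifr, of the LIF arm, had GGCGCC at base -194 to -189 and at base -25 to -20 of its first window. It also had a SMAD box in each of its 2 windows. Il6st, Stat3 and Bmp4 had no match to any of these motifs.

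Dnmt3b1 was compared with the Dnmt3a isoforms across both families, in an additive model of family and enzyme over the 10 libraries without WT. Id3 rose most, by a log2 difference of 1.44 ± 0.23 (SE; limma, adjusted p = 0.00585), and Id2 rose by 1.17 ± 0.24 (adjusted p = 0.0123). Smad1 rose by 0.58 ± 0.15 (adjusted p = 0.0300). Socs3 fell by 0.98 ± 0.23 on the log2 scale (adjusted p = 0.0219). Of the 9 genes, 3 were called higher and 1 lower, where 13.5% of the 14229 genes tested were called higher, 7.17% lower and 20.7% in either direction. The median difference was 0.27 over the 9 genes and 0.01 over all genes tested.

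The other 5 genes did not pass: Id1 differed by 0.57 ± 0.28 (adjusted p = 0.172), Il6st by 0.27 ± 0.14 (0.201), Stat3 by 0.20 ± 0.10 (0.184), Lifr by -0.31 ± 0.15 (0.174) and Bmp4 by -0.22 ± 0.26 (0.564). The Dnmt3b1 libraries lay outside the range of the other 9 libraries for Il6st, Stat3, Id2 and Id3, which were higher, and for Lifr and Socs3, which were lower. That is 6 of 9 genes, beside 28.7% of all genes tested (16.6% higher and 12.1% lower). For Il6st, Stat3 and Socs3 the gap to the nearest other line lay within the replicate SD. The gaps were 0.002, 0.05 and 0.425 (log2), beside SDs of 0.18, 0.09 and 0.44. All 30 fibroblast markers were called higher with Dnmt3b1, by a median of 2.46 (log2), as were 15 of the 17 macrophage markers tested, by a median of 2.45, and 6 of the 11 ES cell markers were called lower, the 11 having a median of -0.46. The part of these cell types in the changes of the 9 genes was not tested.

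The calls rested on few libraries. Over all genes tested, calls fell from 2943 to 1861 of 14229 without DKO+Dnmt3a2. They also fell with either Dnmt3b1 library left out. Losses of calls were thus not particular to the 9 genes. Leaving out either Dnmt3b1 library leaves 1 library with that enzyme. Without TKO+Dnmt3b1, Id3 stood at 1.03, Id2 at 0.93, Socs3 at -0.74 and Smad1 at 0.47, and Id1 turned to -0.07. Without DKO+Dnmt3b1, Id2 stood at 1.37, Socs3 at -1.19 and Smad1 at 0.67. The calls of Id2, Socs3 and Smad1 were lost in both fits, and that of Id3 without TKO+Dnmt3b1. Without DKO+Dnmt3a2, Id2 and Id3 were called, with Socs3 at -0.91 (limma, adjusted p = 0.0550) and Smad1 at 0.55 (0.0699). Over 21 alternatives the adjusted p ran from 0.00344 to 0.140 for Id3, from 0.00369 to 0.238 for Id2, from 0.00846 to 0.336 for Socs3 and from 0.0190 to 0.364 for Smad1, whose call was lost in 10 of the 21.

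**Figure D2:**
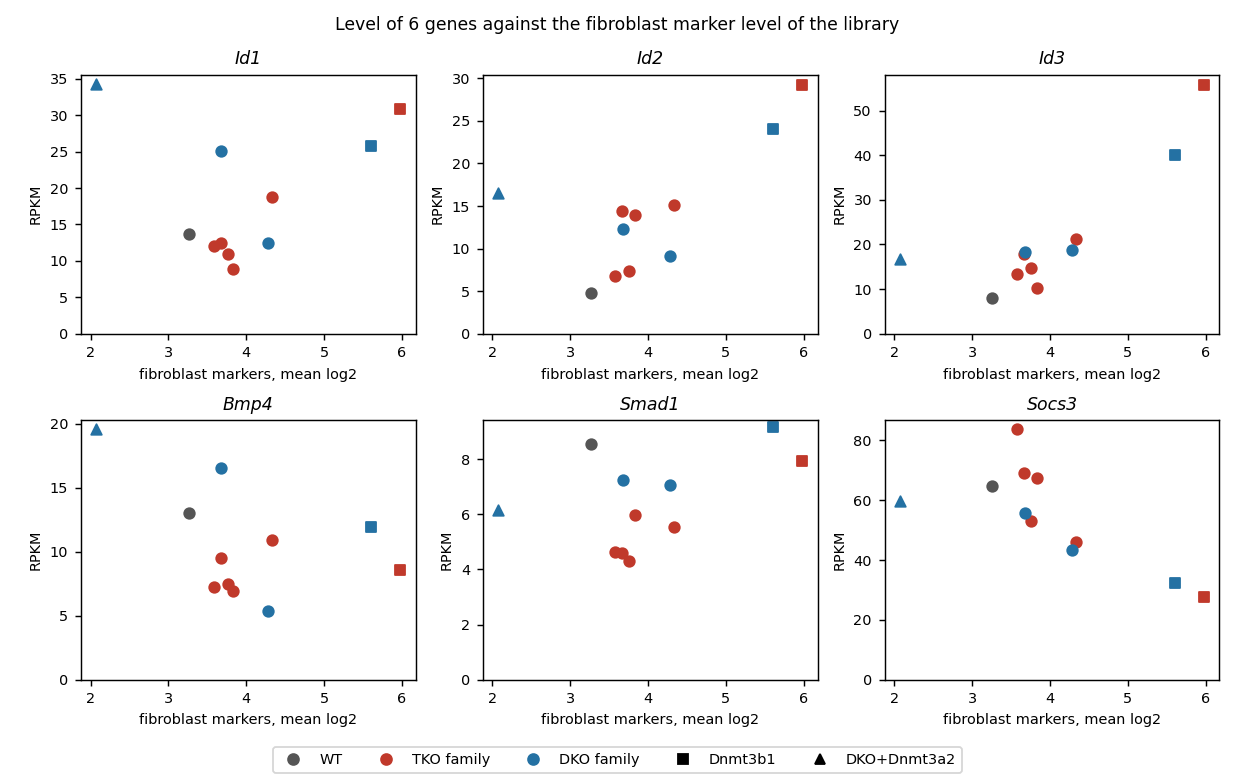
RPKM of Id1, Id2, Id3, Bmp4, Smad1 and Socs3 (vertical axis, linear from 0) against the mean log2(RPKM + 0.5) of 30 fibroblast markers, 1 point per library, with squares for Dnmt3b1 and a triangle for DKO+Dnmt3a2. The Dnmt3b1 libraries lie at the right, at 5.98 and 5.60, and DKO+Dnmt3a2 at the left, at 2.07.

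The next question was whether any enzyme put back moved the genes in either knockout. Id1 differed from the parent lines by 1.01 ± 0.27 (SE, log2; limma, adjusted p = 0.0647), Bmp4 by 0.84 ± 0.25 (0.0814), Id3 by 0.77 ± 0.22 (0.0790) and Id2 by 0.42 ± 0.23 (0.260). None of the 9 genes was called, and 4 (Lifr, Bmp4, Id1 and Id3) were under an unadjusted p of 0.05, as were 4012 of the 14229 genes tested. At the adjusted threshold 1.12% of all genes tested were called higher, 2.81% lower and 3.93% in either direction. Il6st, Stat3, Socs3 and Smad1 stood at 0.10, 0.04, -0.20 and -0.01. Single libraries weighed on this comparison. Without TKO, the only parent left is DKO, and the estimate comes from the DKO family alone. Bmp4 was then at 1.47 and Lifr at -0.72. With 1 library left out at a time, Bmp4 ran from 0.27 to 1.47. Without TKO+Dnmt3a2 replicate 2, Id1 was called at 1.07 (limma, adjusted p = 0.0465; 0.0425 to 0.318 over its alternatives). Smad1 turned to 0.01 under median ratio scaling.

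Whether the effect of an enzyme differed between TKO and DKO was tested as an interaction. The difference of effects, TKO minus DKO, was -1.17 ± 0.27 for Bmp4 (SE, log2; limma, adjusted p = 0.351), -0.80 ± 0.25 for Id2 (0.425), 0.94 ± 0.26 for Id3 (0.391), 0.56 ± 0.27 for Lifr (0.523) and -0.65 ± 0.47 for Socs3 (0.637). None of the 9 genes and 0% of all genes tested passed, while 3 of the 9 and 1486 of the 14229 genes had an unadjusted p under 0.05. The separate ratios to TKO and DKO given above for Bmp4 and Id3 are therefore not shown to differ.

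Lines without Dnmt1 (TKO family) were compared with lines that keep it (DKO family). Id1 differed by -0.68 ± 0.22 (SE, log2; limma, adjusted p = 0.0575), Bmp4 by -0.60 ± 0.20 (0.0657) and Smad1 by -0.35 ± 0.12 (0.0674). The other 6 genes stood between -0.15 and 0.14, with adjusted p-values of 0.394 to 0.802. None of the 9 genes passed, and 3 were under an unadjusted p of 0.05, as were 5354 of the 14229 genes tested. At the adjusted threshold 14.4% of all genes tested were called higher, 6.66% lower and 21% in either direction. Libraries of the 2 families overlapped for all 9 genes, where 10% of all genes tested had no overlap (6.71% all higher in the TKO family and 3.3% all lower). The median over all genes was 0.107 in this comparison, and scalings that brought it near 0 moved the genes at the threshold past it. Bmp4 was called under quantile normalization at -0.69 (adjusted p = 0.0484) and under median ratio scaling at -0.71 (0.0407), Smad1 at -0.48 (0.0240) and -0.45 (0.0261), and Id1 under median ratio scaling at -0.79 (0.0388). Lower calls over all 14229 genes rose too, from 947 to 1522 under quantile normalization and to 1576 under median ratio scaling. Over all alternatives the adjusted p ran from 0.00719 to 0.268 for Bmp4, from 0.0240 to 0.270 for Smad1 and from 0.0204 to 0.262 for Id1. Leaving out TKO or DKO gave Bmp4 -0.86 (adjusted p = 0.00725 and 0.00719), and leaving out TKO+Dnmt3b1 or DKO+Dnmt3b1 gave Id1 -0.94 (adjusted p = 0.0205 in both). In the additive model, the library then left alone in its enzyme class adds nothing to the family term. Each such pair of omissions is therefore the same estimate and not separate support. Stat3, at 0.04, turned to -0.31 (adjusted p = 0.0307) once the median deviation of chromosome 11 was removed.

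Loss of the enzymes was compared with WT, with 1 library on each side and the spread taken from the 2 replicated lines. In TKO, Id2 was 2.89 times WT (log2 change 1.44 ± 0.22, SE; limma, adjusted p = 0.0899) and Bmp4 0.53 times WT (-0.87 ± 0.24, adjusted p = 0.186). Chromosome 12, which carries Id2, had a median deviation of 0.23 (log2) in TKO and of -0.12 to 0.04 in the other libraries. In DKO, Id3 was 2.33 times WT (1.17 ± 0.23, adjusted p = 0.303), Bmp4 0.41 times WT (-1.21 ± 0.24, 0.305) and Id2 1.88 times WT (0.85 ± 0.22, 0.409). None of the 9 genes passed in TKO, with 2 under an unadjusted p of 0.05 (Bmp4 and Id2), beside 0.344% of all genes tested that were called (0.26% higher and 0.0843% lower) and 2447 of 14229 under an unadjusted p of 0.05. None passed in DKO, with 3 under an unadjusted p of 0.05 (Bmp4, Id2 and Id3), beside 0% of all genes, of which 1181 were under an unadjusted p of 0.05. Both comparisons share the WT library. Lifr, Il6st, Stat3 and Socs3 stood at -0.50, -0.28, -0.04 and 0.06 in TKO and at 0.08, 0.14, -0.16 and -0.57 in DKO, and Smad1 and Id1 at -0.48 and -0.60 in TKO and at -0.26 and -0.13 in DKO. Socs3 in TKO turned to -0.10 under median ratio scaling.

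The 2 lines with replicates allowed the short isoform Dnmt3a2 to be set against the long isoform Dnmt3a1 in TKO, 2 libraries against 2. Id2 differed by 1.01 ± 0.16 (SE, log2; limma, adjusted p = 0.745), Id3 by 0.46 ± 0.16 (0.903), Bmp4 by 0.45 ± 0.17 (0.903) and Id1 by 0.40 (0.903). None of the 9 genes passed (3 under an unadjusted p of 0.05, as were 611 of the 14229 genes tested), beside 0.00703% of all genes tested. Id2 had the smallest unadjusted p of the 9, 0.000785.

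**Figure D3:**
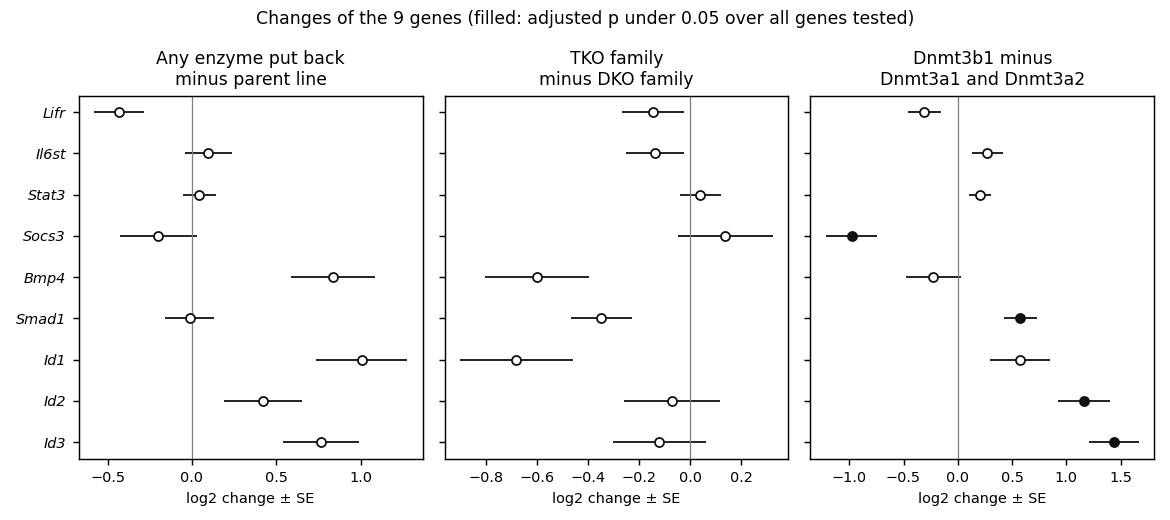
Log2 change (points) with its SE (bars) for each of the 9 genes in the 3 comparisons of the additive model, from limma. Filled points passed an adjusted p under 0.05: Id3, Id2 and Smad1 (higher) and Socs3 (lower) for Dnmt3b1 against the Dnmt3a isoforms, and none in the other 2 panels.

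The wider pathways were followed through 70 further genes in 5 lists, 66 of which were tested. Among the 19 ligands, receptors and transducers around LIF and Stat3, 8 were called higher with Dnmt3b1 against the Dnmt3a isoforms and none lower (median 0.54). Called or not, 14 of the 19 differences were above 0. Lif itself rose by 1.10 ± 0.22 (SE, log2; limma, adjusted p = 0.0109), with 5.20 and 3.798 RPKM in TKO+Dnmt3b1 and DKO+Dnmt3b1 against 1.30 to 3.15 RPKM elsewhere. Il6 and Clcf1, cytokines of the same family, rose by 2.01 ± 0.29 and 2.03 ± 0.28, and the oncostatin M receptor Osmr by 2.20 ± 0.54. The IL-6 receptor Il6ra rose by 1.20, oncostatin M (Osm) by 0.84, the kinase Jak1, which binds gp130, by 0.55 and the phosphatase Ptpn11 by 0.54. Osmr, Il6 and Il6ra were lowest in DKO+Dnmt3a2, at 0.244, 0.064 and 0.332 RPKM.

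Of the 12 STAT3 targets and feedback inhibitors, none was called higher with Dnmt3b1. The kinase Pim3 alone was called lower, at -0.64 ± 0.15 (limma, adjusted p = 0.0217). Called or not, 4 of the 12 differences were above 0 (median -0.22). Myc was at 56.9 and 60.0 RPKM in the Dnmt3b1 libraries and at 5.22 to 37.8 RPKM in the others, a difference of 1.48 that missed the threshold (adjusted p = 0.0707). Socs1, another inhibitor of JAK signalling, fell by 0.73 ± 0.13 with any enzyme put back (adjusted p = 0.0401) and was higher in the TKO family by 0.90 ± 0.11 (0.00219). Socs2 was lower in the TKO family by a log2 difference of -0.75, and Tfcp2l1, a self-renewal factor downstream of Stat3, higher by 0.62 (adjusted p = 0.0468). The call of Tfcp2l1 was lost under quantile normalization (0.0729), under median ratio scaling (0.0784) and with chromosome medians removed (0.0506). The homeobox gene Gbx2 was at 61.3 RPKM in DKO+Dnmt3a2 and at 6.94, 11.004 and 7.61 RPKM in WT, TKO and DKO, and differed between the families by -1.60 (adjusted p = 0.0403). In the LIF list, the adaptor Gab1 was lower in the TKO family (-0.72), and Osm and the adaptor Grb2 were higher (0.93 and 0.32), although Grb2 turned to -0.03 once chromosome medians were removed. Cntfr, the receptor of ciliary neurotrophic factor, rose by 1.35 ± 0.30 with any enzyme put back (adjusted p = 0.0473).

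Of the 16 BMP ligands, receptors and transducers tested, 5 were called higher with Dnmt3b1 and 1 lower (median 0.33). Called or not, 11 of the 16 differences were above 0. The type I receptors Bmpr1b and Acvr1 rose by 1.67 and 1.04, the co-receptors Rgma and Rgmb by 2.12 and 1.34, and the protease Bmp1, which processes collagen, by 2.25 ± 0.36. Bmp7 fell by 1.62 ± 0.36 (adjusted p = 0.0161), to 0.297 and 0.280 RPKM from 1.018 to 7.07 RPKM in the other libraries. It also fell with any enzyme put back, by 1.58 ± 0.35 (0.0473), and Bmp6 was higher in the TKO family by 0.80. Of 11 BMP inhibitors, 5 were called higher with Dnmt3b1 and none lower (median 0.52), and 8 of the 11 differences were above 0. The fibroblast markers, summed at 2431 to 3255 RPKM in the Dnmt3b1 libraries and 286.2 RPKM in DKO+Dnmt3a2, had their highest and lowest levels in the same libraries as Grem1, and their part in the changes of the wider lists with Dnmt3b1 was not tested. The secreted antagonist Grem1 rose by 4.27 ± 0.68, with 73.3 and 54.5 RPKM in the Dnmt3b1 libraries and from 0.338 RPKM (DKO+Dnmt3a2) to 9.38 RPKM in the others. Fst and Nbl1, which also bind ligands, rose by 1.99 and 1.798, and the ubiquitin ligase Smurf1 by 0.56. Smad6, an inhibitory Smad, was higher in the TKO family by 0.76.

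Of the 8 BMP targets and Id partners, 3 were called higher and 2 lower with Dnmt3b1 (median 0.45), and 5 of the 8 differences were above 0. Id4, the fourth Id gene, rose by 1.07 ± 0.31, to about 4.05 and 4.02 RPKM, although DKO held 6.11 RPKM. Tcf4 and Tcf12, E proteins that Id proteins bind, rose by 0.57 and 0.82. Hey1 fell by 0.82 ± 0.19, also with any enzyme put back (-0.82 ± 0.19, adjusted p = 0.0486), where the call was lost under each of the 3 scalings (quantile 0.0614, median ratio 0.0542, chromosome medians 0.0612) and with a pseudocount of 0.1 (0.0527). The ERK phosphatase Dusp9, a BMP target in ES cells, fell by 0.68 ± 0.12. Dusp9 was higher in the TKO family by 0.72 ± 0.10 (adjusted p = 0.0032), and Tcf4 was lower (-0.57). In all, 21 of the 66 genes were called higher and 4 lower with Dnmt3b1, beside 13.5% and 7.17% of all genes tested. With any enzyme put back 1 was called higher and 3 lower (1.12% and 2.81% of all genes), and in the TKO family 7 were called higher and 4 lower (14.4% and 6.66%). Over all genes tested, the 2943 calls with Dnmt3b1 fell to 1861 without DKO+Dnmt3a2, and fell too without either Dnmt3b1 library. The 2990 calls between families fell to 1096 without DKO+Dnmt3a1 and to 651 without DKO+Dnmt3a2. The calls of the wider lists rested on single libraries too. Of the 25 made with Dnmt3b1, 19 were made without DKO+Dnmt3a2. All were lost without TKO+Dnmt3b1, and all but those of Clcf1 and Bmpr1b without DKO+Dnmt3b1. Either omission leaves 1 library with Dnmt3b1. Of the 11 made between the families, 2 (Socs1 and Dusp9) were made without DKO+Dnmt3a1 or without DKO+Dnmt3a2, and 6 to 10 without any one other library. Of the 4 made with any enzyme put back, 4 remained without TKO+Dnmt3a2 replicate 2, 3 without TKO and none without any one of the other 8 libraries. Scaling also ended the calls of Id4, Osm and Tcf4 with Dnmt3b1 (quantile normalization), of Grb2 between families (median ratio scaling and chromosome medians) and of Cntfr and Socs1 with any enzyme put back (chromosome medians). Without both Dnmt3b1 libraries, or without DKO, all 4 calls made with any enzyme put back were lost, with Cntfr at 1.16 and 0.73, Socs1 at -0.80 and -0.58, Bmp7 at -1.05 and -0.99 and Hey1 at -0.54 and -0.85.

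**Figure D4:**
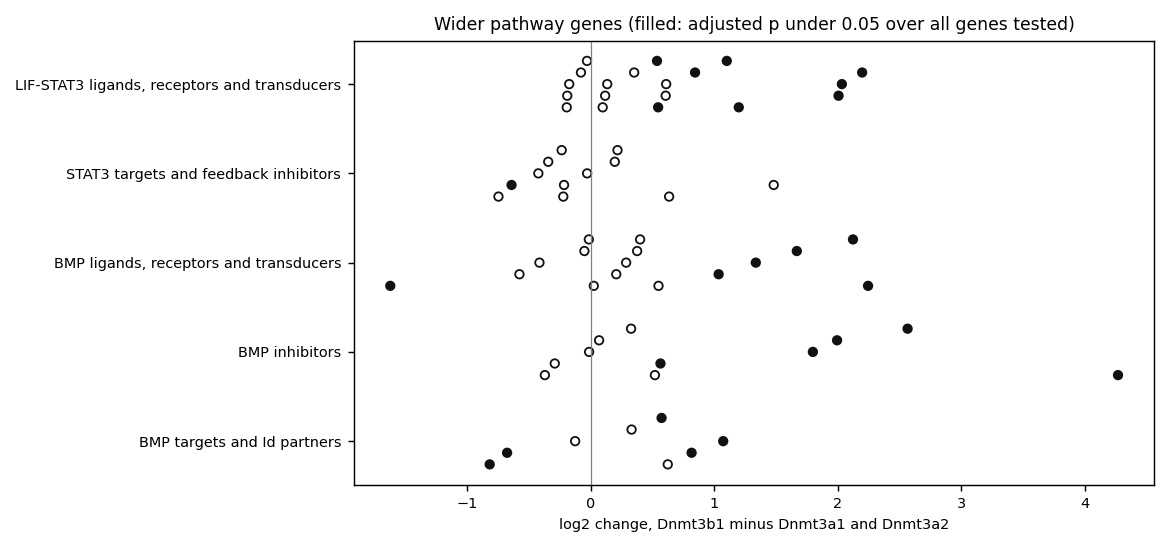
Log2 difference between Dnmt3b1 and the Dnmt3a isoforms for the tested genes of the 5 wider lists, 1 point per gene, filled where the adjusted p was under 0.05. Grem1 is furthest to the right at 4.27 and Bmp7 furthest to the left at -1.62.

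Over the 11 libraries, Pearson's r of log2(RPKM + 0.5) was highest within the set for Id2 with Id3 (0.829) and for Id1 with Bmp4 (0.706), and most negative for Socs3 with Il6st (-0.89) and with Id3 (-0.868). Partners were sought among the genes tested, leaving out those with a predicted or clone name. Ercc1 was most like Id3 (r = 0.979), Zfp329 most like Id1 (0.977), Usp20 most like Il6st (0.969), Phkg2 most like Lifr (0.961) and Cct4 most like Socs3 (0.953). Rpf1 was most like Bmp4 (0.951), Naif1 most like Id2 (0.95), Ikbkb most like Smad1 (0.94) and Zfp551 most like Stat3 (0.905). These values describe 11 libraries of 9 related lines, which differ in depth and in marker level as given above. Each partner is the top of all tested genes other than those with a predicted or clone name.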

How the data were processed

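PolyA RNA was sequenced from 11 libraries. Their kit was a TruSeq RNA kit (v2), per the labels' protocols, which keeps no strand, so overlapping and antisense genes share reads. The submitters' processing notes name STAR 2.4.0, bcl2fastq 1.8.4 and the build mm9. Deposited were RPKM for 24016 genes with 1 RefSeq transcript each, computed by the authors. The counting tool and the gene lengths used are not given in the sources used here. The table held 0 other per-sample columns.

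RPKM are not counts, so limma 3.58.1 (lmFit, eBayes with a trend, R 4.3.3) was fitted to log2(RPKM + 0.5) for the 14229 genes that reached 1 RPKM in any library. Calls were made at an adjusted p under 0.05, with Benjamini-Hochberg adjustment over all 14229. The pseudocount of 0.5 makes the changes of low genes smaller. Comparisons with WT, the interaction and that of the 2 Dnmt3a isoforms used 9 group means over the 11 libraries, and the others an additive model of family and enzyme over 10 libraries. Lines with 1 library were thereby assumed to vary like the others. The fitting scripts were tested on simulated data. Depth was the total at which values of RNAs up to 400 nt stood for whole reads (up to 5, within 0.05), which 99.2% to 100% of them did. Reads behind a value used transcript lengths of GENCODE vM21.

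The members and lists were chosen with earlier results of these data known. Of the wider lists the text names each gene called in any comparison and the 2 with the largest change in each additive comparison, except 1 that is not reported here. The comparison of Dnmt3a2 with Dnmt3a1, and its alternatives, were added after the data were seen. Promoter windows are RefSeq's on GRCm38.p6 (250 bases before to 50 after the start) and were matched by symbol. No mm9 coordinates were used. Alternatives covered the pseudocount, the low-value filter, scaling, chromosome medians, the trend, a replicate block, other models and each library left out.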

Additional observations from a re-analysis of the deposited data

How the results depend on the processing

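With 1 library in 7 of the 9 lines, most limits come from single libraries. The 14 counts of calls changed by over 1.5 times in 77 of 242 alternatives, and single genes kept direction and side of the threshold in 1885. The other single-gene values lost the call in 244, gained it in 29 and turned in 46. The cause was not tested. Against WT, TKO gave 49 calls; it gave 401 without a filter on low values, 115 with a filter on the mean, 0 under quantile normalization and 0 without a trend, 12 under median ratio scaling, 81 with chromosome medians removed, 319 in an additive model over 11 libraries, and 0 with any one of the 4 replicated libraries left out (TKO+Dnmt3a1 and TKO+Dnmt3a2, the libraries left out in turn in the fits of 9 group means). DKO gave 0 calls, but 381 without a filter and 12 in the additive model, and the interaction 0 calls, but 870 without a filter. Both stayed at 0 with each of these 4 libraries left out. Dnmt3a2 against Dnmt3a1 gave 1 call; 0 with a pseudocount of 0.1, without a filter, under quantile normalization, median ratio scaling, no trend or any one of these 4 libraries left out, and 3 with a filter on the mean or with chromosome medians removed. Any enzyme put back gave 559 calls; 138 without a filter, 0 with 9 group means, 3 with each line counted once, 3 without both Dnmt3b1 libraries and 0 to 867 with 1 library left out, when 0 to 2 of the 9 genes were called. The families gave 2990 calls; 1905 without a filter, 1802 with 9 group means, 1688 with each line counted once, 1794 without both Dnmt3b1 libraries and 651 to 3245 with 1 library left out. Of the 9 genes, 0 were called between families, but 2 under quantile normalization, 3 under median ratio scaling, 1 each with chromosome medians removed, 9 group means or without both Dnmt3b1 libraries, and 0 to 1 with 1 library left out. Dnmt3b1 against Dnmt3a gave 2943 calls; 1898 with 9 group means and 77 to 3338 with 1 library left out. Of the 9 genes, 4 were called, but 2 without a filter, 2 with 9 group means and 0 to 4 with 1 library left out. Higher calls were 28.4% of the add-back calls (39.6% under quantile normalization, 39.3% under median ratio scaling), 68.3% of those between families (44.8%, 48.2%, and 52.6% with chromosome medians removed) and 65.3% of those with Dnmt3b1 (48.2% under quantile normalization). Between families, 947 of all genes tested were called lower. That rose to 1522 under quantile normalization, 1576 under median ratio scaling and 1403 with chromosome medians removed.

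Replicate numbers are shared by TKO+Dnmt3a1 and TKO+Dnmt3a2 only, and the deviations of their replicates correlated at 0.086 over 14229 genes, so the numbers were not taken to pair the samples. With the replicate block, TKO against WT gave 307 calls and 1 of the 9 genes (Id2, adjusted p = 0.0383 by limma; 0.0383 to 0.203 over its alternatives). With the block DKO against WT gave 60 calls, the interaction 1, Dnmt3a2 against Dnmt3a1 6, any enzyme put back 1415 with 1 of the 9 genes (Id1), and the families 1689. Myc was called with any enzyme put back (adjusted p = 0.0335). Calls lost with the block were Smad1 (adjusted p = 0.0594), Osmr (0.0551), Ptpn11 (0.0623), Smurf1 (0.0725), Id4 (0.0869) and Tcf4 (0.0692) for Dnmt3b1 against Dnmt3a, and Grb2 (0.109), Tfcp2l1 (0.101), Gbx2 (0.0893), Bmp6 (0.0594) and Smad6 (0.0679) between families.

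Some values turned direction, and not all of them were small. Before these alternatives, Gbx2 was at 1.22, Grem1 at 0.64 and Id4 at -0.59 with any enzyme put back. Id1 was at 0.57 with Dnmt3b1. In TKO against WT, Socs3 went to -0.006 (quantile), -0.105 (median ratio), -0.449 (chromosome medians) and -0.187 (additive model). In the additive model of DKO against WT, Lifr went to -0.137 and Il6st to -0.002. With chromosome medians removed, the interaction of Stat3 went to 0.073 and of Smad1 to 0.164. For Dnmt3a2 against Dnmt3a1, Lifr went to -0.06, -0.029 and -0.033 (quantile, median ratio, chromosome medians), Il6st to -0.008 and -0.019 (quantile, median ratio) and to -0.099 and -0.035 with 1 library left out (-0.099 to 0.213), and Socs3 to 0.052 and 0.089 with 1 left out (-0.57 to 0.089). With any enzyme put back, Smad1 went to 0.035, 0.011 and 0.197 (quantile, median ratio, chromosome medians), 0.011 (block) and 0.001, 0.003, 0.009, 0.024 and 0.071 with 1 library left out (-0.091 to 0.071). Without both Dnmt3b1 libraries Stat3 went to -0.028, Socs3 to 0.111 and Grem1 to -0.794. Without TKO, Il6st went to -0.091 (-0.091 to 0.27 over libraries left out), Socs3 to 0.133 (-0.501 to 0.133) and Grem1 to -0.371 (-0.371 to 1.559). Without DKO, Stat3 went to -0.009 (-0.009 to 0.1), Gbx2 to -0.05 (-0.05 to 2.626) and Id4 to 0.022 (-1.271 to 0.022). Between families, Stat3 went to -0.001, -0.068 and -0.314 (quantile, median ratio, chromosome medians), Socs3 to -0.216 (chromosome medians) and -0.01 (block), Id2 to 0.013 (block) and 0.199 (without DKO+Dnmt3a1; -0.255 to 0.199), Id3 to 0.073 (without TKO or without DKO; -0.283 to 0.073) and Grb2 to -0.031 (chromosome medians). With Dnmt3b1, Id1 went to -0.069 without TKO+Dnmt3b1 (-0.069 to 1.125 over libraries left out).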
